A study of Mus musculus with 8 samples.

Results

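Polyamine synthesis and catabolism was followed here through 10 genes in mouse bone marrow-derived macrophages (BMDM) treated with sphingosine d18:1, written So(d18:1), or with vehicle. The genes are Odc1, Amd1, Srm, Sms and Arg2 on the side of synthesis, Sat1 and Smox on the side of breakdown, and the regulators Oaz1, Oaz2 and Azin1. They were found by symbol among 55357 genes listed, and all 10 were among the 14514 genes with enough counts to be tested. The list was selected on earlier results of the same comparison, so the values of its members are given as a description and support nothing by themselves.

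So(d18:1) is the common mammalian sphingosine, a long-chain amino alcohol released when ceramide is broken down. BMDM were grown with macrophage colony-stimulating factor from the marrow of C57BL/6J wild-type mice, and poly(A) RNA was sequenced from 4 Control and 4 So(d18:1) libraries. Treated cells received 2 μM So(d18:1) dissolved in methanol for 6 h, and Control cells received methanol for the same time. The labels name no other agent, whereas the study's text speaks of an inflammatory stimulus, so the activation state of both groups is not settled by the sources used here. The study's figure legend calls the 4 samples of a group biologically independent, without saying whether they were separate mice or cultures. The p-values measure the spread between these libraries, and whether it holds the spread between mice is not known.

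Polyamines (putrescine, spermidine and spermine) are small, positively charged molecules that bind nucleic acids and are needed for growth and for translation. Ornithine decarboxylase, encoded by Odc1, makes putrescine from ornithine, and spermidine and spermine synthase then add aminopropyl groups that the product of Amd1 prepares. Spermidine and spermine are taken apart again through acetylation by the Sat1 enzyme, and Smox oxidises spermine directly with release of hydrogen peroxide. Antizymes bind ornithine decarboxylase and send it to the proteasome, and the antizyme inhibitor, an inactive relative of the decarboxylase, takes the antizymes away from it. In macrophages the pathway is best known for its link to arginase, which supplies ornithine.

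The antizymes carry the best known regulatory sequence of the family, and it is shown for both because the results set their transcripts against that of their inhibitor. Translation of an antizyme mRNA has to pass a stop codon by a forward shift of 1 base, and polyamines are known to favour that shift. In the lines below the capitals mark the codon before the stop together with the stop codon TGA, read on GRCm38 from chr10:80828277-80828313 (plus strand, coding exon) for Oaz1 and from chr9:65686254-65686290 (plus strand, coding exon) for Oaz2.
Oaz1: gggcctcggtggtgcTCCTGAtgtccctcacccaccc
Oaz2: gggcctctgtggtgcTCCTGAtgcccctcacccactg
Both stretches held the same 33 of 37 bases. RNA-seq counts report the amount of these transcripts and not how often the shift was made.

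Upstream sequence is shown for Sat1 and Smox, the members with the largest fold change in each direction among those that passed the test, and for Sms, the member with CACGTG in its first listed window, the E-box recognised by MYC with MAX. The windows are the 250 bases before the RefSeq start on GRCm38.p6, at chrX:155216450-155216699 (minus strand) for Sat1, chr2:131491612-131491861 (plus strand) for Smox and chrX:157492288-157492537 (minus strand) for Sms. The Smox window lies inside the span annotated for the gene, which begins at chr2:131491496, so it precedes the RefSeq start only. Capitals mark ACGTG or GCGTG on either strand, the core letters of the hypoxia response element, and CACGTG holds ACGTG on both strands.
Sat1: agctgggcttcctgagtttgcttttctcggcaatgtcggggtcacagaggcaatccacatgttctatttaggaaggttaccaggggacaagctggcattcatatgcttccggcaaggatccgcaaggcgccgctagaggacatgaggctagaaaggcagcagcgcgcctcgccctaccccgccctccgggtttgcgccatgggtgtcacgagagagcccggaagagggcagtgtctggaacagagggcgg
Smox: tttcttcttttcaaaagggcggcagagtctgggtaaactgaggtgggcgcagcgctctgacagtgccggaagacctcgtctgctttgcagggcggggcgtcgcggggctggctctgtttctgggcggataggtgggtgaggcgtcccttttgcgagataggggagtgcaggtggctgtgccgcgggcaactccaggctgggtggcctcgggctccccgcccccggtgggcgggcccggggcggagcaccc
Sms: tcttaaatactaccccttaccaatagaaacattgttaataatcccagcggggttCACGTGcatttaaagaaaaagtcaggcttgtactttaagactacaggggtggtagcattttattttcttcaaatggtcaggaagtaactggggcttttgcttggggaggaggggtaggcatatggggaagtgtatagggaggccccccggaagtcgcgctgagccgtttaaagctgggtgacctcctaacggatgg
Of the 10 members 7 had an entry in the RefSeq table, and the windows of Odc1, Sms, Amd1 and Oaz1 held ACGTG or GCGTG while those of Sat1, Smox and Oaz2 held neither. Either motif was present in 38.6% of 32851 windows of this length and CACGTG in 6.02%, so a match is a description of these letters only.

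Expressed per length, the breakdown gene Sat1 was by far the most abundant member. Its level in Control was 355 ± 8.11 CPM per kilobase of exon (SD, n = 4), where CPM is the count scaled by library size and TMM factor, and Oaz1 followed at 91.9 ± 4.47. Oaz2 (19.0 ± 0.900), Smox (18.1 ± 1.74), Azin1 (11.0 ± 1.43) and Odc1 (10.5 ± 1.68) formed the middle of the range on the same scale. Amd1 (6.96 ± 0.590), Arg2 (5.81 ± 0.597), Sms (3.01 ± 0.329) and Srm (2.49 ± 0.938) were the lowest. The neighbours Oaz2 and Smox, Azin1 and Odc1, Amd1 and Arg2, and Sms and Srm overlapped between libraries in both groups, and the other neighbours in this order did not. In So(d18:1) the order changed only within pairs of overlapping neighbours: Smox stood above Oaz2, Odc1 above Azin1 and Arg2 above Amd1.

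**Figure D1:**
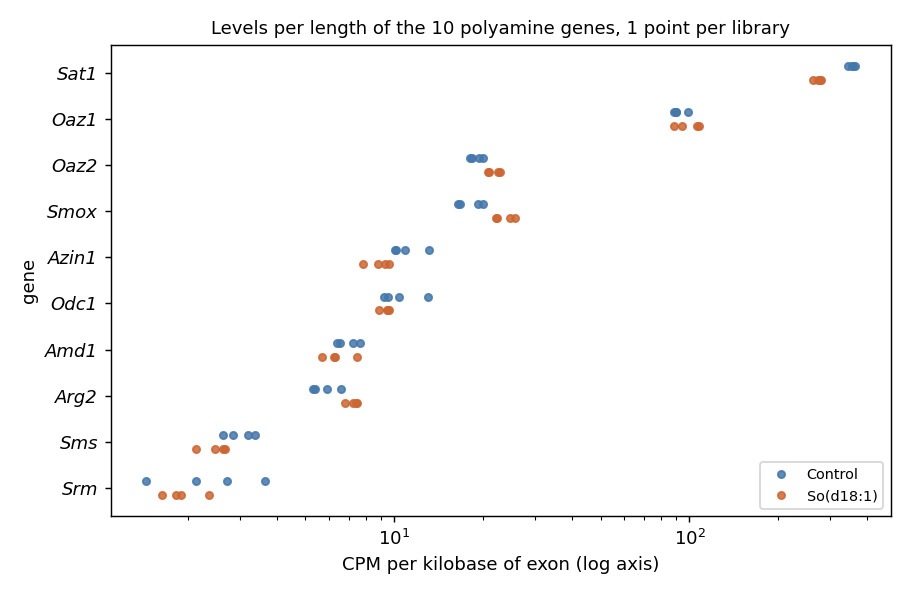
Levels of the 10 polyamine genes per length, with the level in CPM per kilobase of exon on a log axis and 1 point per library (4 Control, 4 So(d18:1)). Sat1, at a mean of 355 in Control and 272 in So(d18:1), lies to the right of all others, and Srm, at 2.49 and 1.93, lies lowest.

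Between So(d18:1) and Control, 4 of the 10 members passed an adjusted p of 0.05 in the edgeR quasi-likelihood test, with p adjusted over all 14514 genes. Smox and Oaz2 rose, and Sat1 and Azin1 fell. Across all genes tested 8.94% passed, 3.87% being higher and 5.07% lower, and because the members were picked from this comparison nothing is read from the difference. By the rule in the study's methods, an unadjusted p under 0.05 with a fold change of at least 1.5, no member passed, against 3.89% of all genes. An unadjusted p under 0.05 alone was found for 6 members and for 23.4% of all genes. The CPM of the groups did not overlap for Sat1, Azin1, Smox, Oaz2 and Arg2, and 15.0% of all genes showed such a separation. The median log2 fold change was -0.14 over the members and 0.0036 over all genes tested, with absolute values of 0.296 and 0.110 at the median.

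**Figure D2:**
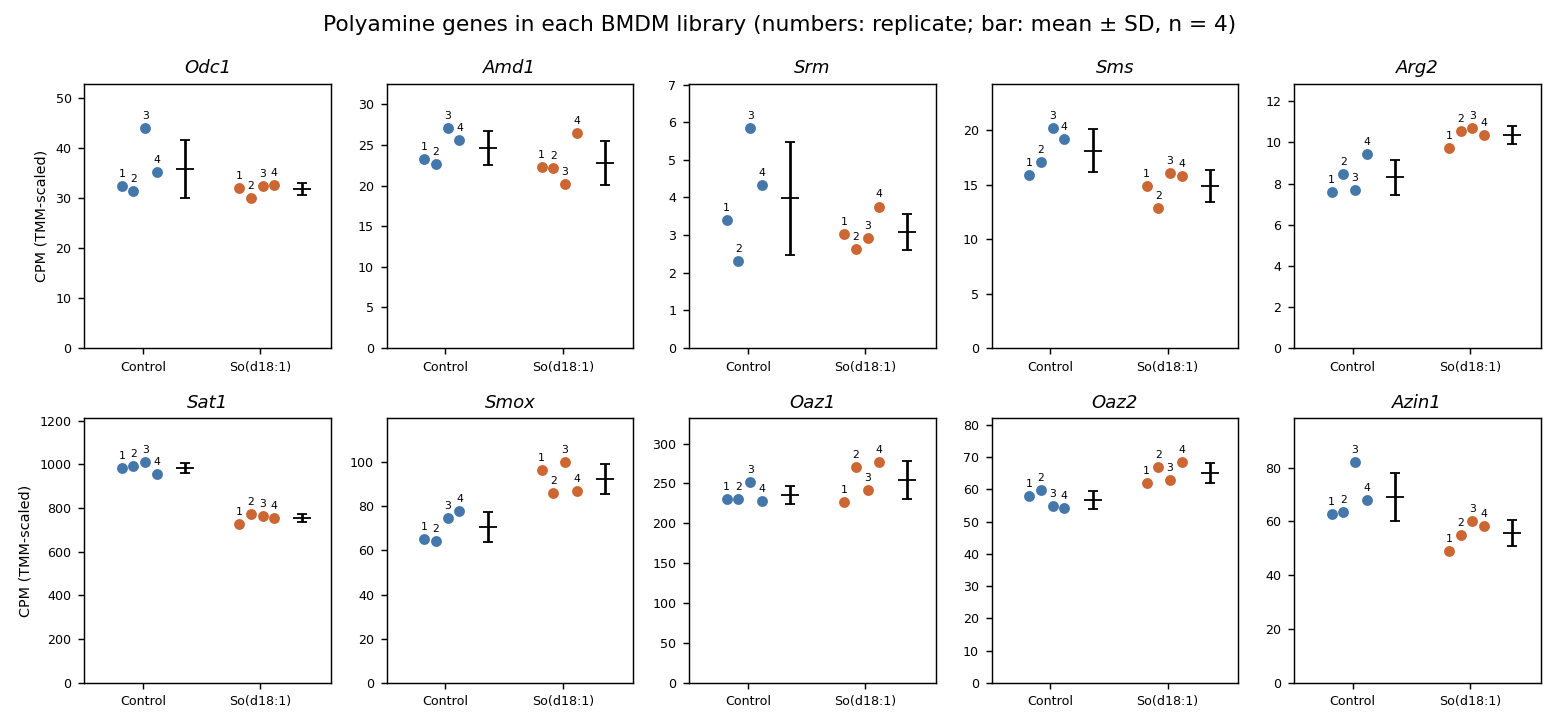
TMM-scaled CPM of each polyamine gene in each library (y axis from 0, numbers are replicates, bars are mean ± SD of 4 libraries). The groups are apart for Sat1, Smox, Oaz2, Azin1 and Arg2, and Control replicate 3 stands highest for Odc1, Srm and Azin1.

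Sat1 encodes spermidine/spermine N1-acetyltransferase, the step that marks polyamines for export or oxidation, and lies at chrX:155213132-155216449 (minus strand; GRCm38, as for all genes here). Its CPM were 985, 992, 1009 and 955 in Control replicates 1 to 4 and 726, 772, 765 and 755 in So(d18:1) replicates 1 to 4. Every So(d18:1) library lay below every Control library, and the spread within each group was small beside the gap. Sat1 fell by 23.4%, from 985 ± 22.5 to 755 ± 20.2 CPM (SD, n = 4), its log2 fold change being -0.38 ± 0.041 (SE; adjusted p = 2.0e-06). The call was kept in all 16 alternative settings, and its log2 fold change lay between -0.40 and -0.37 when any 1 library was left out. Between 12966 and 24948 reads per library stood behind these values, the deepest coverage of any member.

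Smox encodes spermine oxidase (chr2:131491496-131525922, plus strand) and moved the other way. Control libraries held 65.2, 64.2, 74.7 and 77.7 CPM, and So(d18:1) libraries held 96.4, 86.1, 99.9 and 86.8 CPM. All So(d18:1) libraries were above all Control libraries, although Control replicates 3 and 4 were closer to them than replicates 1 and 2. Smox rose by 30.8%, from 70.5 ± 6.78 to 92.3 ± 6.91 CPM, at a log2 fold change of 0.39 ± 0.066 (adjusted p = 0.00118). It too was called in all 16 alternative settings, between 0.35 and 0.44 on the log2 scale with 1 library left out. None of its 50-base words occurred in another annotated gene, so its counts were not shared with a copy.

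Paox, the oxidase that acts on the acetylated products of the Sat1 enzyme, belongs to a list of other polyamine enzymes. Its CPM were 34.6, 33.7, 33.4 and 36.6 in Control and 29.7, 29.0, 28.5 and 30.1 in So(d18:1). The groups did not overlap, and Paox fell at a log2 fold change of -0.24 ± 0.058 (adjusted p = 0.0132). The call was lost without Control replicate 4 (-0.21, adjusted p = 0.0620). Its exons overlap those of Echs1 on the other strand, and since the strand setting of the counting is not given in the sources used here, reads of both could be mixed.

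The 2 routes of breakdown can be set against each other within each library, where scaling between libraries cancels. The ratio of Smox to Sat1, both per length, was 0.0510 ± 0.00548 in Control and 0.0872 ± 0.00768 in So(d18:1) (SD, n = 4), and all So(d18:1) libraries were above the highest Control library at 0.0580. The ratio of Paox to Sat1 was 0.0199 ± 0.00131 and 0.0220 ± 0.00102, with overlapping groups. Both numerators and the denominator come from the comparison that chose the members, so these ratios carry no test.

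**Figure D3:**
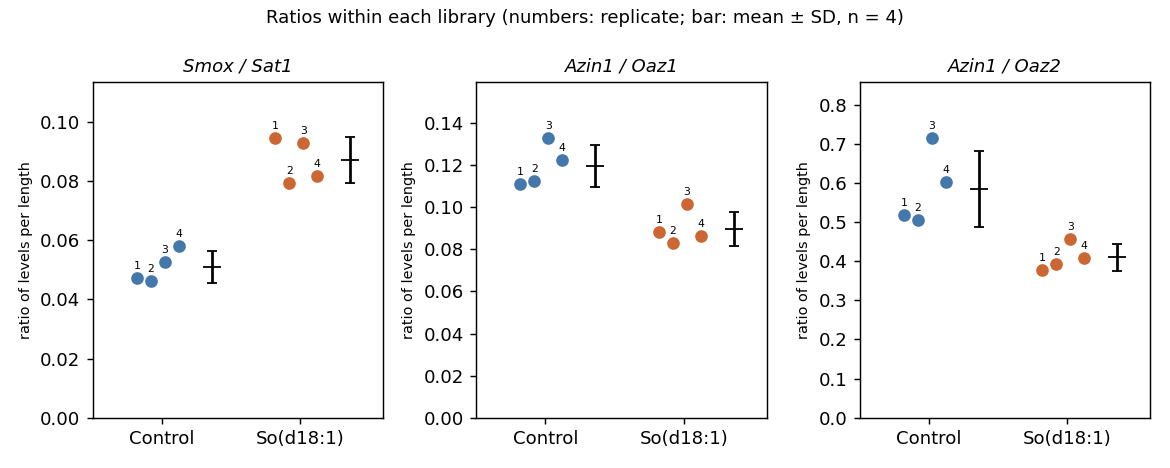
Ratios of per-length levels within each library (y axis from 0, numbers are replicates, bars are mean ± SD of 4 libraries) for Smox over Sat1, Azin1 over Oaz1 and Azin1 over Oaz2. The first ratio is higher in every So(d18:1) library (0.0794 to 0.0946) than in any Control library (0.0461 to 0.0580), and the other ratios are lower in every So(d18:1) library.

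Azin1 encodes the antizyme inhibitor (chr15:38487427-38519266, minus strand). Control libraries held 62.8, 63.4, 81.9 and 68.1 CPM, and So(d18:1) libraries held 49.0, 55.1, 60.1 and 58.4 CPM. The groups did not overlap, with Control replicate 3 far above the other Control libraries. Azin1 fell by 19.3%, from 69.1 ± 8.92 to 55.7 ± 4.90 CPM, at a log2 fold change of -0.31 ± 0.088 (adjusted p = 0.0482), close to the threshold. Without Control replicate 3 its log2 fold change was -0.22 and still passed. The call was lost without Control replicate 4 and without So(d18:1) replicates 1, 2 or 4, where the adjusted p reached 0.116.

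Oaz2 encodes antizyme 2 (chr9:65668001-65690300, plus strand). Its CPM were 58.0, 59.9, 54.8 and 54.2 in Control and 61.9, 67.0, 62.8 and 68.3 in So(d18:1). All So(d18:1) libraries exceeded all Control libraries by a narrow margin. Oaz2 rose by 14.7%, from 56.7 ± 2.69 to 65.0 ± 3.12 CPM, at a log2 fold change of 0.20 ± 0.052 (adjusted p = 0.0202). This call was lost without Control replicate 3 or 4 and without So(d18:1) replicate 2 or 4, where the adjusted p reached 0.0730.

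Oaz1, the more abundant antizyme (chr10:80826656-80829290, plus strand), did not pass. Its CPM ranged from 228 to 252 in Control and from 227 to 276 in So(d18:1), and the groups overlapped. The log2 fold change was 0.11 ± 0.057 with an adjusted p of 0.245, and it was 0.071 without So(d18:1) replicate 4 and 0.16 without So(d18:1) replicate 1. Of its 50-base words 21.0% occur elsewhere, mainly in the pseudogene Oaz1-ps, which itself held 30 to 62 counts per library.

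Set against those of the antizymes, the transcript of the inhibitor was lower in treated cells. The ratio of Azin1 to Oaz1 per length was 0.120 ± 0.0100 in Control and 0.0898 ± 0.00807 in So(d18:1), and that of Azin1 to Oaz2 was 0.585 ± 0.0964 and 0.409 ± 0.0343. In both ratios every So(d18:1) library was below every Control library. These genes were picked from this same comparison, so the ratios carry no test. The ratio of Odc1 to Oaz1 overlapped between groups at 0.114 ± 0.0129 and 0.0948 ± 0.0106, and that of Oaz1 to Oaz2 overlapped at 4.86 ± 0.387 and 4.56 ± 0.210.

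None of the 5 genes of synthesis passed the test. Odc1, which encodes the rate-limiting decarboxylase (chr12:17544794-17551505, plus strand), held 32.5, 31.5, 44.1 and 35.3 CPM in Control and 32.2, 30.1, 32.5 and 32.6 CPM in So(d18:1). Apart from Control replicate 3 the libraries were close together, and the groups overlapped. The log2 fold change was -0.17 ± 0.088 with an adjusted p of 0.255, and it was -0.056 without Control replicate 3 (adjusted p = 0.688). Odc1 has many processed pseudogenes, and 24.3% of its 50-base words occur in 16 other genes, so its counts are less certain than those of Smox.

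Amd1 encodes S-adenosylmethionine decarboxylase, which supplies the aminopropyl groups (chr10:40287458-40302186, minus strand). Its CPM ranged from 22.6 to 27.1 in Control and from 20.2 to 26.5 in So(d18:1), at a log2 fold change of -0.11 ± 0.083 (adjusted p = 0.464). The near-identical gene Amd2 holds 76.7% of its 50-base words and received 1 to 6 counts per library, so reads of this pair could have been split or dropped in the counting. The log2 fold change was -0.20 without So(d18:1) replicate 4, -0.055 without So(d18:1) replicate 3 and -0.061 without Control replicate 3.

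Srm encodes spermidine synthase (chr4:148591503-148594993, plus strand) and was the member with the fewest reads, between 54 and 139 per library. Control libraries held 3.41, 2.31, 5.85 and 4.33 CPM, and So(d18:1) libraries held 3.02, 2.62, 2.91 and 3.76 CPM. The Control libraries spanned the whole So(d18:1) range. The log2 fold change was -0.36 ± 0.235 with an adjusted p of 0.396. It was -0.11 without Control replicate 3 and -0.55 without Control replicate 2, so a difference of the size seen for Sat1 was not resolved for this gene.

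Sms encodes spermine synthase (chrX:157443855-157492287, minus strand). Its CPM were 15.9, 17.1, 20.2 and 19.2 in Control and 14.9, 12.8, 16.1 and 15.8 in So(d18:1). Only the lowest Control library and the highest So(d18:1) library crossed. The log2 fold change was -0.28 ± 0.093 with an adjusted p of 0.0648, just outside the threshold, and 3 of 16 alternative settings called it lower. The copy Sms-ps shares 17.4% of its 50-base words and held 64 to 116 counts per library, against 266 to 480 for Sms itself.

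Arg2 encodes the mitochondrial arginase that makes ornithine from arginine (chr12:79130777-79156301, plus strand). Control libraries held 7.59, 8.47, 7.71 and 9.44 CPM, and So(d18:1) libraries held 9.75, 10.6, 10.7 and 10.4 CPM. The groups did not overlap, but with a log2 fold change of 0.32 ± 0.101 the adjusted p was 0.0559 and Arg2 was not called; 2 of 16 alternative settings called it higher. Its annotated exons overlap Vti1b on the other strand, which held 904 to 1399 counts per library against 158 to 267 for Arg2. The cytosolic arginase Arg1, a gene of arginine-fed polyamine synthesis in alternatively activated macrophages, ranged from 7.75 to 13.1 CPM in Control and from 8.88 to 10.1 CPM in So(d18:1). Its log2 fold change was 0.010 ± 0.140 with an adjusted p of 0.977, and the sign turned with the scaling and with the library left out.

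**Figure D4:**
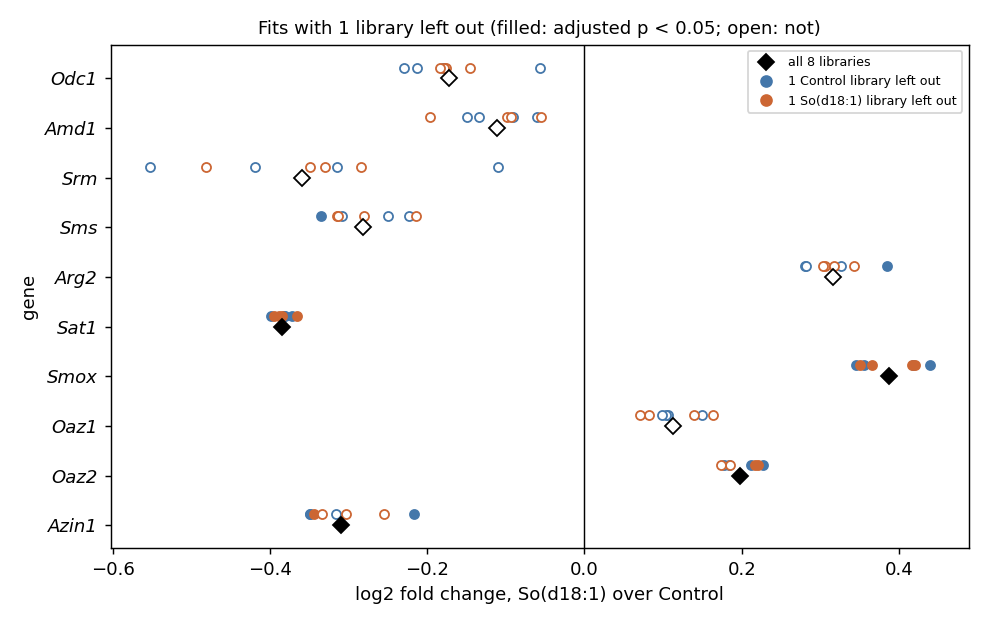
Log2 fold change of So(d18:1) over Control for each polyamine gene with all 8 libraries (diamonds) and with 1 library left out (circles, coloured by the group of that library; filled where the adjusted p was under 0.05). Sat1 and Smox stay filled throughout, while the circles of Srm reach from -0.55 to -0.11.

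Genes around the pathway were taken from 6 lists written with earlier results of these data known. Of 58 genes listed 41 were tested, and 10 passed (24.4%), 4 of them higher and 6 lower, beside 8.94% of all genes. Among other polyamine enzymes and regulators 1 of 4 tested genes passed (Paox), with a median log2 fold change of -0.16. The hypusine pathway attaches an aminobutyl group from spermidine to the translation factor eIF5A. None of its 4 tested genes passed, and 1 had an unadjusted p under 0.05, beside 23.4% of all genes. Eif5a itself lay between 170 and 199 CPM in Control and between 165 and 182 CPM in So(d18:1), at a log2 fold change of -0.078 ± 0.050 (adjusted p = 0.374), which was -0.035 without Control replicate 3 and -0.052 without So(d18:1) replicate 3. The median of this list was -0.015.

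Transport genes gave 1 call in 6 tested, beside 8.94% of all genes, at a median of -0.049. Slc3a2, the heavy chain shared by several amino acid exchangers and implicated in polyamine export, fell from 189 ± 17.2 to 162 ± 5.82 CPM, at a log2 fold change of -0.22 ± 0.055 (adjusted p = 0.0147). That call did not hold when Control replicate 4 (adjusted p = 0.0544) or So(d18:1) replicate 2 (adjusted p = 0.0642) was left out. Atp13a3, a P5B ATPase linked to polyamine uptake, had a log2 fold change of -0.073 ± 0.043 (adjusted p = 0.321), at 190 ± 6.38 CPM in Control.

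Among 9 tested genes of arginine and ornithine supply, 2 were called lower and none higher, beside 5.07% and 3.87% of all genes. The median log2 fold change was 0.010, and 5 of the 9 had a positive log2 fold change. Slc7a7, the light chain that exchanges cationic amino acids together with the Slc3a2 product, held 38.8, 35.1, 41.1 and 39.6 CPM in Control and 27.8, 26.8, 32.1 and 28.7 CPM in So(d18:1). It was lower in every So(d18:1) library, at a log2 fold change of -0.42 ± 0.067 (adjusted p = 3.16e-04). Slc7a2, a transporter of arginine induced in activated macrophages, fell from 8.61 ± 0.695 to 6.70 ± 0.343 CPM with an adjusted p of 0.0402 (log2 fold change -0.36 ± 0.107). The call of Slc7a2 was lost without any 1 of the libraries other than Control replicate 2, at an adjusted p of up to 0.108 (without Control replicate 3), and without a filter on low counts. Both genes overlap another gene on the opposite strand, Oxa1l and Gm26584.

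Of 9 tested genes of methionine, S-adenosylmethionine and methylthioadenosine salvage, 1 was called higher and 1 lower, beside 3.87% and 5.07% of all genes. The median log2 fold change was -0.12. Ahcy, which hydrolyses S-adenosylhomocysteine, rose from 16.3 ± 1.39 to 21.7 ± 2.70 CPM (log2 fold change 0.41 ± 0.090, adjusted p = 0.00511). Mtr, the methionine synthase, fell from 154 ± 8.71 to 136 ± 1.11 CPM (log2 fold change -0.18 ± 0.045, adjusted p = 0.0128), a call lost without Control replicate 1 (adjusted p = 0.0636).

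Odc1 is a textbook target of MYC, and the MYC, MAX and MXD network was therefore listed. Of 9 tested genes 3 were called higher and 1 lower, beside 3.87% and 5.07% of all genes, with a median of 0.060. Myc held 4.13, 3.38, 6.74 and 4.53 CPM in Control and 2.58, 2.03, 3.22 and 2.87 CPM in So(d18:1). The groups did not overlap, at 45 to 160 reads per library, and the log2 fold change was -0.81 ± 0.203 with an adjusted p of 0.0165. Without Control replicate 3 it was -0.58, with an adjusted p of 0.0606, and the call was also lost without So(d18:1) replicate 1 (0.0504) or 2 (0.0640). The MXD proteins compete with MYC for MAX, and Mxd1 rose at a log2 fold change of 0.26 ± 0.052 (adjusted p = 0.00213). Mxi1 (0.17 ± 0.049, adjusted p = 0.0328) and Mxd4 (0.17 ± 0.052, adjusted p = 0.0424) also rose, and both have an overlapping gene on the other strand. The call of Mxi1 was lost without Control replicate 1 or 2 or So(d18:1) replicate 3 or 4, and that of Mxd4 without any library other than Control replicate 1 or 2 and under 2 other settings.

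**Figure D5:**
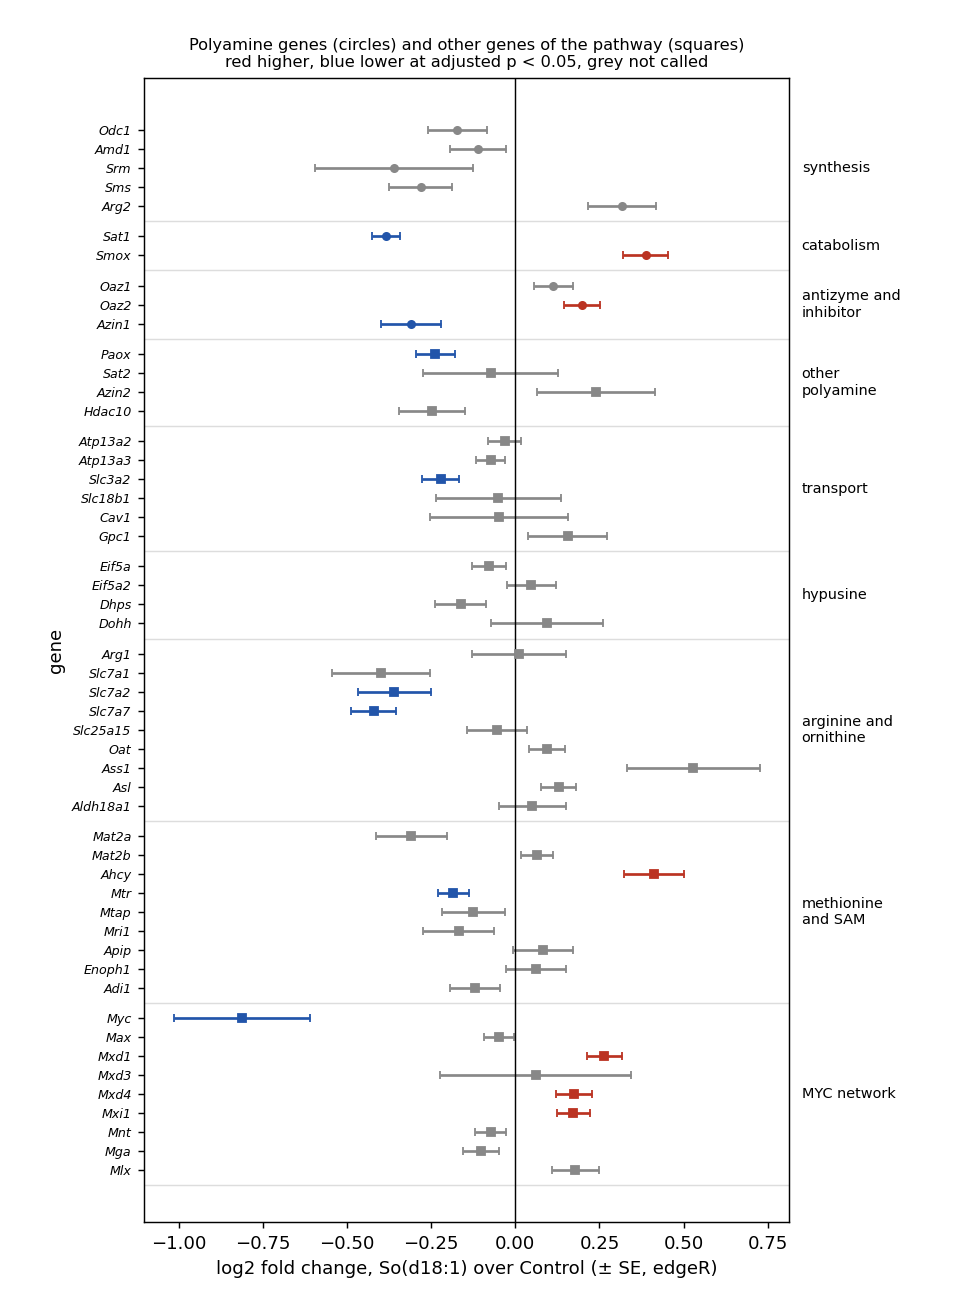
Log2 fold changes of So(d18:1) over Control with SE from edgeR for the polyamine genes (circles) and the other tested pathway genes (squares), grouped by role, red where higher and blue where lower at an adjusted p under 0.05. Sat1 at -0.38 and Smox at 0.39 lie on opposite sides, the genes of synthesis are grey, and Myc at -0.81 is farthest from 0.

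The profile nearest to that of Sat1 was sought among 9150 genes of at least 3 mean log2 CPM, by the root mean square difference of log2 CPM centred on each gene's mean over the 8 libraries. Tmem106a (0.0317), Cd48 (0.0407), Slc45a4 (0.0407), Ly9 (0.0456) and F13a1 (0.0474) were nearest. Each was lower in every So(d18:1) library, as the measure of likeness requires, with log2 fold changes between -0.38 and -0.32. F13a1, a transglutaminase subunit of macrophages, was the most abundant at 1760 ± 20.6 CPM in Control (log2 fold change -0.32).

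Markers of macrophages were strongly expressed and none of 8 was at 0, with a summed level of 30614 to 32956 CPM in Control and 26496 to 31445 CPM in So(d18:1). Of these 8 markers 3 passed, beside 8.94% of all genes. Mertk (log2 fold change -0.38) and Cd68 (-0.22) fell, and Itgam rose (0.18), a call lost without So(d18:1) replicate 2 (adjusted p = 0.0556). Of 10 neutrophil markers 5 were called lower (S100a8, S100a9, Csf3r, Mpo and Elane), beside 5.07% of all genes. All 10 neutrophil markers had a negative log2 fold change, the sign of Sat1 and Azin1, beside 7127 of 14514 genes tested. The median over these markers was -0.43, and none was at 0. Their summed level was 2031 to 2709 CPM in Control and 1606 to 1832 CPM in So(d18:1), without overlap, and the calls of S100a9 and Elane were lost without Control replicate 4 or any 1 So(d18:1) library and that of Mpo without Control replicate 1 or 4 or So(d18:1) replicate 2, 3 or 4. In bulk RNA fewer cells of a type and less RNA per cell cannot be told apart. Their part in the polyamine results was not tested. Dendritic cell (5 tested), T and B cell (4), fibroblast (4) and mast cell (1) markers gave no call by edgeR. In these lists 2, 3, 1 and 1 had an unadjusted p under 0.05, beside 23.4% of all genes. Their summed levels reached at most 25.3 CPM, while no erythroid marker passed the filter on counts.

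Since polyamine synthesis goes with cell division, 24 genes of dividing cells were read beside it. Aurkb, a mitotic kinase, rose (log2 fold change 0.48, adjusted p = 0.0174) and was the only 1 of the 24 called by edgeR, beside 8.94% of all genes. An unadjusted p under 0.05 was found for 14 of them, beside 23.4% of all genes, and a positive log2 fold change for 17, beside 50.9% of all genes. By the rule in the study's methods 6 of the 24 passed, beside 3.89% of all genes. The groups did not overlap for 8 that were higher and none that were lower, beside 1038 and 1142 of 14514 genes. The list's median was 0.21, with log2 fold changes from -0.30 to 0.86. Its summed level was 623 to 701 CPM in Control and 713 to 965 CPM in So(d18:1), where replicate 2 was highest. The call of Aurkb was lost without Control replicate 3 or 4 and without So(d18:1) replicate 1 or 2, at an adjusted p of up to 0.0665. Between 6 and 10 genes of the list were called by DESeq2, by limma-voom, without a filter or with the replicate number in the model.

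Control replicate 3 held the highest level of all 8 libraries for Sat1, Odc1, Amd1, Srm, Sms, Azin1, Myc and Arg1 and for the summed neutrophil markers. By the chi-square per gene between the counts of 2 libraries, Control replicates 3 and 4 were close to each other (3.76), as were 1 and 2 (2.75). The other Control pairs lay between 5.68 and 12.1. What set Control replicate 3 or these pairs apart, and their part in the polyamine results, was not tested. Total counts were between 17748397 and 26088609 per library and did not differ between groups beyond the spread (two-sided exact permutation test, p = 0.314, where the smallest p possible is 0.0286). The common biological coefficient of variation was 0.0657. Precision differed by gene, the SE of the members' log2 fold changes running from 0.041 (Sat1) to 0.235 (Srm).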

How the data were processed

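Poly(A) RNA of BMDM was sequenced in 8 libraries, 4 per group as given by the treatment labels. Per the submitters' processing notes and the study's methods, Trim Galore 0.6.7 removed adaptors, HISAT2 2.2.1 placed the reads on mm10 (GRCm38) and featureCounts 2.0.1 assigned them to genes. A single deposited table holds the resulting raw counts, unscaled, by Ensembl gene, with gene lengths, and its columns were matched to libraries by name. Strand setting, the treatment of reads with several matches and the annotation release are not given in the sources used here.

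Symbols came from GENCODE M21 for 52081 of 55357 identifiers, and 98.66% of these had the same exon length as the table. Identifiers without a symbol held at most 0.325% of the counts of a library. The analysis used edgeR 4.0.16 in R 4.3.3: filterByExpr left 14514 genes, and TMM scaling, the robust quasi-likelihood F test and Benjamini-Hochberg adjustment over all of them followed. Calls were made at an adjusted p under 0.05. The SE was derived from F as |log2 fold change|/√F, and log2 CPM used a prior count of 2. No pair of libraries agreed within sampling noise (chi-square per gene from 2.75 to 12.1).

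The members, the 6 pathway lists, the dividing cell list and the marker lists were chosen with earlier results of these data known. Genes named were all members, Paox, Arg1, Myc, Eif5a, Atp13a3 and Slc3a2, up to 5 genes of smallest p among those called in every other list, and the 5 genes nearest to Sat1. Identical 50-base words between annotated transcripts were counted to find genes that could share reads. Alternatives were RLE, upper quartile and library size scaling, no filter, the replicate number as a block, a minimum of 10 counts per library, DESeq2 1.42.0, limma-voom (limma 3.58.1), the call rule of the study's methods and leaving out each library. On simulated data the test recovered 71.4% of genes with a true log2 fold change of 0.5 and 96.9% of those with 1. The members' log2 fold changes, from -0.38 to 0.39, were smaller in size than both.

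Promoter windows are RefSeq's on GRCm38.p6, and the frameshift sites were read from GENCODE M21 transcripts placed on GRCm38 by the annotation.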

Additional observations from a re-analysis of the deposited data

Results flagged for a closer look

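In 4 of 74 groups of 4 libraries, taken over 37 named genes, 1 library lay so far from the others that its gap divided by the range of the group was above Dixon's 95% critical value; chance gives about 3.7 such groups. For Odc1 in So(d18:1) the ratio was 0.836, with replicate 2 at 4.92 log2 CPM and the others between 5.01 and 5.03. For Oaz1 in Control it was 0.874, with replicate 3 at 7.98 and the others between 7.83 and 7.85. For Arg1 in So(d18:1) it was 0.842, with replicate 4 at 3.16 and the others between 3.32 and 3.35. For Ahcy in So(d18:1) it was 0.848, with replicate 2 at 4.69 and the others between 4.33 and 4.38. Neither Odc1, Oaz1 nor Arg1 was called with all 8 libraries, and Ahcy kept its call without So(d18:1) replicate 2.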

How the results depend on the processing

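Over the 37 named genes and 16 alternative settings, 527 values kept their direction and their side of the threshold, 55 were no longer called, 5 became called and 5 changed sign. Sat1 and Smox were called in all 16 by adjusted p. Neither was called by the rule of the study's methods, which is not among the 16. All 5 changes of sign were of Arg1, at -0.00088 with upper quartile scaling and among the fits without 1 library, which gave -0.081 to 0.20. By the call rule of the study's methods 564 genes and 0 members were called, against 1298 and 4. With 1 library left out, 815 (without So(d18:1) replicate 2) to 1370 genes were called, 360 to 576 of them higher (fewest without Control replicate 4 or So(d18:1) replicate 2 or 4) and 455 to 794 lower, and 2 to 5 members, 1 to 2 higher and 1 to 3 lower. Only Sat1 and Smox were left without So(d18:1) replicate 2 or 4. Of the other pathway genes 6 to 10 were called in these fits, against 10, the fewest without So(d18:1) replicate 2. In the dividing cell list the count went from 1 to 7 with no filter, 6 with DESeq2, 8 with limma-voom and 10 with the replicate block, and lay between 0 (without Control replicate 3 or 4) and 3 (without Control replicate 2 or So(d18:1) replicate 2 or 3) with a library left out. The cause was not tested.

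The groups share replicate numbers, but libraries with the same number did not deviate together (correlations from -0.0035 to 0.10), and the numbers are not known to pair them. With the replicate block 1784 genes were called, and 6 members, with Sms (adjusted p = 0.0277) and Arg2 (adjusted p = 0.0468) added. Scaling moved the median of all genes by under 0.1 on the log2 scale. Srm had the fewest reads of the members, at 54 to 139 per library, and whether depth or the spread between libraries limited its precision was not tested.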
